A study of Mus musculus with 57 samples.

Results

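The phagocyte NADPH oxidase genes were followed as 7 genes picked by symbol: Cybb, Cyba, Ncf1, Ncf4, Rac2, Hvcn1 and Duoxa1. All 7 were found among the 50565 genes of one count table and the 53278 genes of another, and all 7 passed the filter on low counts in both. The RNA came from brain cells of mice isolated by CD11b, a surface protein of myeloid cells, and the labels call them microglia. Wild-type (WT) animals and littermates deficient in P2RY12 (KO), a nucleotide receptor of resting microglia, were compared; the labels used here give neither the allele nor the age, and the groups share no other named alteration. In the sex experiment, with no stated treatment group, there were 4 WT and 5 KO males and 4 WT and 5 KO females. In the LPS experiment, whose labels give no sex, there were 8 libraries labelled WT ns, 9 WT LPS, 8 KO ns and 8 KO LPS. Lipopolysaccharide (LPS), from the bacterial outer membrane, was injected intraperitoneally at 1 mg/kg. The label ns is not defined and is used as written, and the time between injection and collection is not given in the sources used here.

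The oxidase moves electrons from NADPH across a membrane onto oxygen and makes superoxide, which phagocytes release onto microbes and which microglia can release in the inflamed brain. Its membrane core is a heterodimer of gp91phox (Cybb), the catalytic subunit, and p22phox (Cyba), its stabilising partner. On activation a cytosolic complex joins it: p47phox (Ncf1) is the organiser, p40phox (Ncf4) binds a membrane lipid, and the GTPase Rac2 completes the assembly. Hvcn1 is the voltage-gated proton channel that balances the charge moved by the oxidase. Duoxa1 differs from the others in that it is the maturation factor of the dual oxidase Duox1, another NADPH oxidase, and it is not a subunit of the phagocyte enzyme.

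In GRCm39 the genes lie at X:9301493-9354005 (Cybb, minus strand), 8:123151510-123159679 (Cyba, minus), 5:134248907-134258479 (Ncf1, minus), 15:78128324-78146782 (Ncf4, plus), 15:78443369-78456983 (Rac2, minus), 5:122344872-122380360 (Hvcn1, plus) and 2:122134012-122144255 (Duoxa1, minus). The counts are per gene and do not resolve exons. Promoters are shown because Cybb, Ncf1 and Cyba were called higher with LPS in at least 1 genotype while Duoxa1 was called lower in both. RefSeq sequences (GRCm38.p6) were found for 4 of the 7 genes. Each line gives the 250 bases before the start of a minus-strand gene, 5′ to 3′ along the gene. Capitals mark GAAANNGAAA, a pattern of the kind found in interferon-responsive promoters, on either strand.
Cybb (chrX:9469325-9469574): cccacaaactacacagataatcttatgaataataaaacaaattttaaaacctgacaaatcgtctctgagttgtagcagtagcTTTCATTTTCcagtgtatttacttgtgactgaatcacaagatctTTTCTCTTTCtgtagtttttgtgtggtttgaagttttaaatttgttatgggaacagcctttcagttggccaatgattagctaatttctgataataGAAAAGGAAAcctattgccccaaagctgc
Ncf1 (chr5:134229626-134229875): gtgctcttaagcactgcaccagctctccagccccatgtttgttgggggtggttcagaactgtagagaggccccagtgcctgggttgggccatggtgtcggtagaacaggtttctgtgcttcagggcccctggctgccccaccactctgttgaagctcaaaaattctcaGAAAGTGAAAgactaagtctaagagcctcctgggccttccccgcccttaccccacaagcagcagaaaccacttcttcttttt
Cyba (chr8:122432941-122433190): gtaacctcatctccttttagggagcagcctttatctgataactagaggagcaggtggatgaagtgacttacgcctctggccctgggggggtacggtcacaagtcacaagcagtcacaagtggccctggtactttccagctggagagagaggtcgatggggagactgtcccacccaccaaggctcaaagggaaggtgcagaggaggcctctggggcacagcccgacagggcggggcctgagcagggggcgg
Duoxa1 (chr2:122313731-122313980): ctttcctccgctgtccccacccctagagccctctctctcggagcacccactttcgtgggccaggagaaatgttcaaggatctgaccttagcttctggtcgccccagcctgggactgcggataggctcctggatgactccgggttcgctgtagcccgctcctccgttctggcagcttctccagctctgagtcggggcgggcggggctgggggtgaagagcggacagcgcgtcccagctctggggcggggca
GAAANNGAAA occurred 3 times before Cybb, at bases 168 to 159, 124 to 115 and 29 to 20 upstream of the start. It occurred 1 time before Ncf1, at 82 to 73, and no match was found before Cyba or Duoxa1. Of 32851 mouse promoters of the same length, 2.98% held at least 1 match and 4 (0.012%) held 3 or more. The limit of 3 was taken from the count before Cybb, whose promoter is among those 4, so this share is not a test. GAGGAA, 1 form of the pattern bound by the factor PU.1, was found 1 time before Duoxa1 and in 23.3% of all promoters. It was not found before Cybb, Ncf1 or Cyba, and other forms of the PU.1 pattern were not searched. The GC box GGGCGG was found 3 times before Duoxa1, 2 times before Cyba and 1 time before Ncf1, and in 32.7% of all promoters; 2 of the matches before Duoxa1 overlap. These patterns were chosen after the letters and the responses were seen, and a match is a description, not a binding site.

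Levels are given in CPM, the counts of a gene per M counts (M for mega) in a library scaled by TMM. A gene is called where edgeR's quasi-likelihood test gave a Benjamini-Hochberg adjusted p under 0.05 over all genes tested. Totals ran from 58.54 to 318.5 M counts (median 92.04) in the sex experiment and from 15.91 to 168.4 M (median 24.68) in the LPS experiment. The microglial markers were present in every library, with counts for all 10 listed genes in the LPS table and for 9 in the sex table, which does not list Fcrls. P2ry12, the targeted gene, was lower in every KO than in every WT animal of the sex experiment, at 309.3 to 526.4 CPM against 3007 to 5928. In the LPS experiment, library number 2 of WT aside, it was at 586.5 to 1228 in KO ns against 3523 to 5430 in WT ns, and at 84.69 to 153.3 in KO LPS against 401 to 1057 in WT LPS. In the LPS experiment 4 WT libraries, all of library number 2, went against their treatment label. Saa3, an acute-phase gene, was at 1794 (WT ns 1) and 2489 CPM (WT ns 5) under the ns label, and at 1.597 (WT LPS 1) and 3.186 (WT LPS 6) under the LPS label. The other WT libraries were at 1.524 to 64.48 with ns (median 2.762, highest in WT ns 8) and 1420 to 9671 with LPS. WT ns 8 also had the lowest level of the microglial marker Cx3cr1 in WT ns (209.2, group median 3268), and it was kept in the tests. The 4 WT libraries of number 2 are shown apart because of their Saa3 levels and were left out of the tests, unless stated. WT LPS 8 and WT LPS 9, whose counts differed least of all pairs, were counted as 1 sample, which gives n = 6 for each WT group. The labels do not say that libraries of the LPS experiment came from separate animals, so p-values measure the spread between these libraries. RNA from a mixed cell isolate cannot tell fewer cells of a type from less RNA per cell.

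With LPS the membrane core, Ncf1, Rac2 and the proton channel were called higher in at least 1 genotype, and Duoxa1 fell to a few counts in both. In WT 4 of the 7 genes were called, where 30.7% of the 16322 genes tested were called. Cyba, Ncf1 and Hvcn1 rose, against 14.8% of all genes called higher, and Duoxa1 fell, against 15.9% called lower. In KO 6 of the 7 were called, where 28.8% of all genes were. Cybb, Cyba, Ncf1, Rac2 and Hvcn1 rose, against 13.3% of all genes, and Duoxa1 fell, against 15.5%. The median log2 fold change of the 7 genes was 0.75 in WT and 0.70 in KO, and that of all genes tested was -0.01 and -0.02. With all libraries kept as labelled, 0 of the 7 were called in WT (3 at an unadjusted p under 0.05), as were 0 of 16073 genes. Within library set 1 there were 4 calls of the 7 in each genotype, where 42.6% (WT) and 45.3% (KO) of 15939 genes were called. Within library set 2 only Duoxa1 was called in WT, and only Cybb and Duoxa1 in KO, where 3.31% and 4.36% of 16533 genes were.

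**Figure D1:**
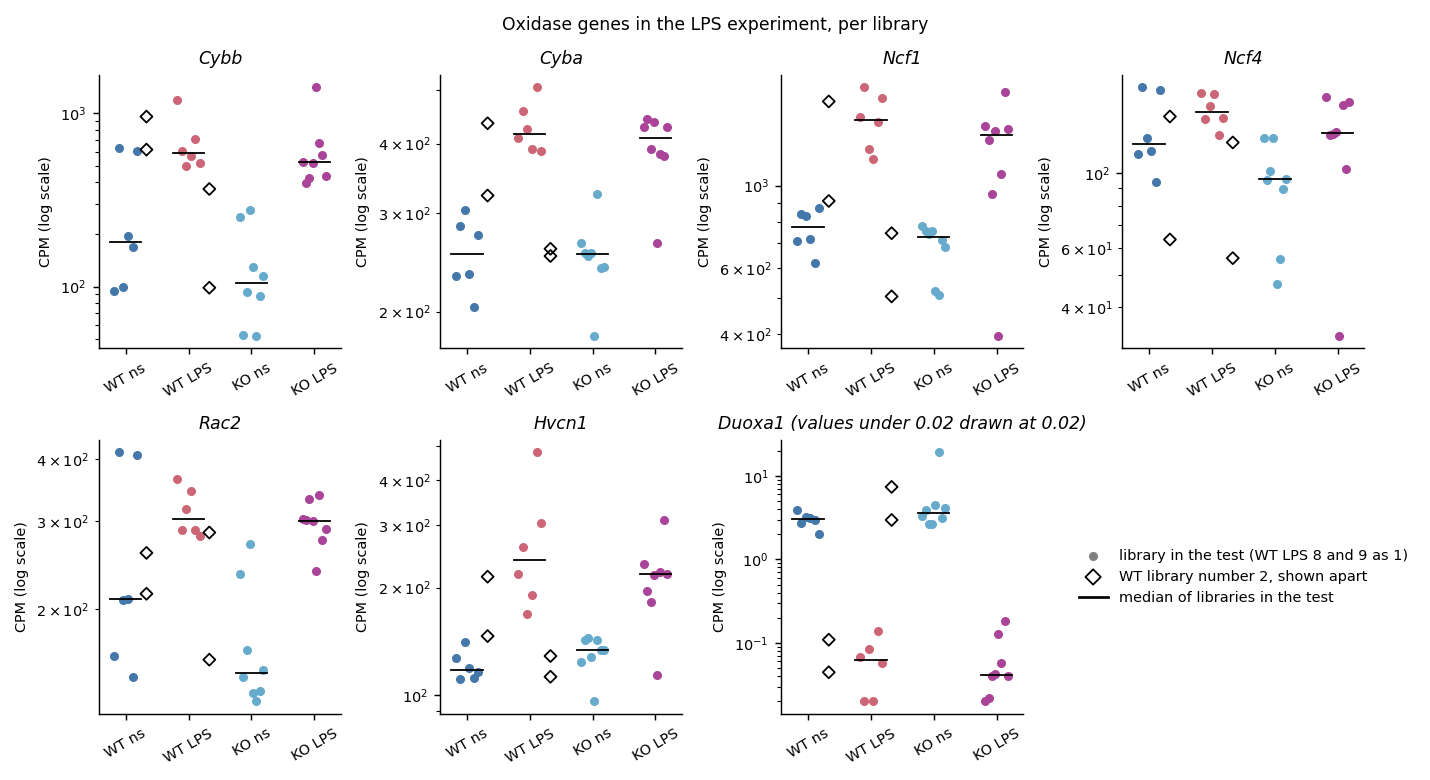
CPM of each gene (log axes) in every library of the LPS experiment, with WT LPS 8 and 9 drawn as their mean, lines at the medians of the tested libraries and open diamonds for the WT libraries of number 2. The diamonds labelled WT ns lie within the WT LPS range for Cybb (618.2 and 959) and Duoxa1 (0.04447 and 0.1092), and KO LPS 5 stands apart in Cybb, Cyba, Ncf1, Ncf4 and Hvcn1. For Rac2 and Ncf4 the diamonds of the 2 labels overlap.

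Cybb, the catalytic subunit, ranged in WT ns from 93.74 to 632.1 CPM with a median of 182, and its mean was 299.1 ± 251 (SD, n = 6). In WT LPS the lowest value was 498.5, the median 588.8 and the highest 1189 (682.2 ± 259.2, n = 6). The groups overlapped: WT ns 3 (632.1 CPM) and WT ns 8 (605.7) lay among the LPS libraries, and the other 4 WT ns libraries were at most at 195.6. In KO ns the lowest, median and highest values were 51.85, 104.2 and 277.9 (132.9 ± 86.62, n = 8), and in KO LPS 395.7, 521.7 and 1422 (621.8 ± 336.1, n = 8). Every KO LPS library lay above every KO ns library, an absence of overlap seen for 7.63% of all genes tested. The log2 fold change was 2.24 ± 0.44 (SE) in KO, with an adjusted p of 0.0003012 by edgeR. In WT it was 1.19 ± 0.49 and was not called (adjusted p 0.06449, edgeR). The libraries of number 2 labelled WT ns had 618.2 and 959 CPM, and those labelled WT LPS had 366.1 and 98.47.

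WT ns 3 and WT ns 8 were also the WT ns libraries with the most RNA of neutrophil marker genes, such as Ly6g and the calprotectin genes S100a8 and S100a9. The summed level of the 10 markers was 18960 and 17700 CPM there, against 1857 to 5145 in the other 4 WT ns libraries. It was 1078 to 10240 in KO ns, 2284 to 13650 in WT LPS and 2030 to 4920 in KO LPS. All 10 markers had counts in every library. The medians of 5 of the 10 were higher in WT LPS than in WT ns, and those of 7 of the 10 were higher in KO LPS than in KO ns. In KO the median of S100a8 was 187.6 CPM at ns and 571.3 at LPS and that of S100a9 288 and 773.2, while that of Csf3r, the marker with the highest median in KO ns, was 1546 and 1162. KO ns 4 and KO ns 1, with marker sums of 9195 and 7860, had the highest Cybb levels of KO ns (277.9 and 253.7, next 130.3). KO ns 6, with the highest sum (10240), had the lowest (51.85). Most of its sum was S100a8 (3458) and S100a9 (4391), and its markers did not move together. Ly6g was the highest of KO ns (64.82), while Csf3r was the lowest (199.9) and Cxcr2 (12.36) lay below the group median (17.62). Its microglial markers were uneven too, with the highest Gpr34 (11520) and the lowest Sall1 (286) and Csf1r (3449) of KO ns. The summed level of 6 monocyte markers, among them Ly6c2 and Ccr2, ran from 199.4 to 1922 in WT ns and from 127.7 to 1265 in KO ns. In the LPS groups it ran from 379.1 to 2661 and from 292 to 726. Left out together, WT ns 3 and WT ns 8 gave a log2 fold change of Cybb in WT of 2.30 ± 0.49 (adjusted p 0.001089, edgeR). Without WT ns 3 alone it was 1.62 (adjusted p 0.01901, edgeR), and without WT ns 8 alone 1.55 (adjusted p 0.02294, edgeR). These libraries had the highest Cybb of WT ns, so leaving them out raises the change by construction. The omission of both was chosen after the values were seen and is a description, not a test. The same limit holds where both are left out below. Microglial markers moved as well, from 22390 to 39220 CPM in WT ns to 16470 to 25500 in WT LPS, and from 33400 to 51680 in KO ns to 21250 to 27310 in KO LPS. The part of these other genes in the Cybb result was not tested.

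**Figure D2:**
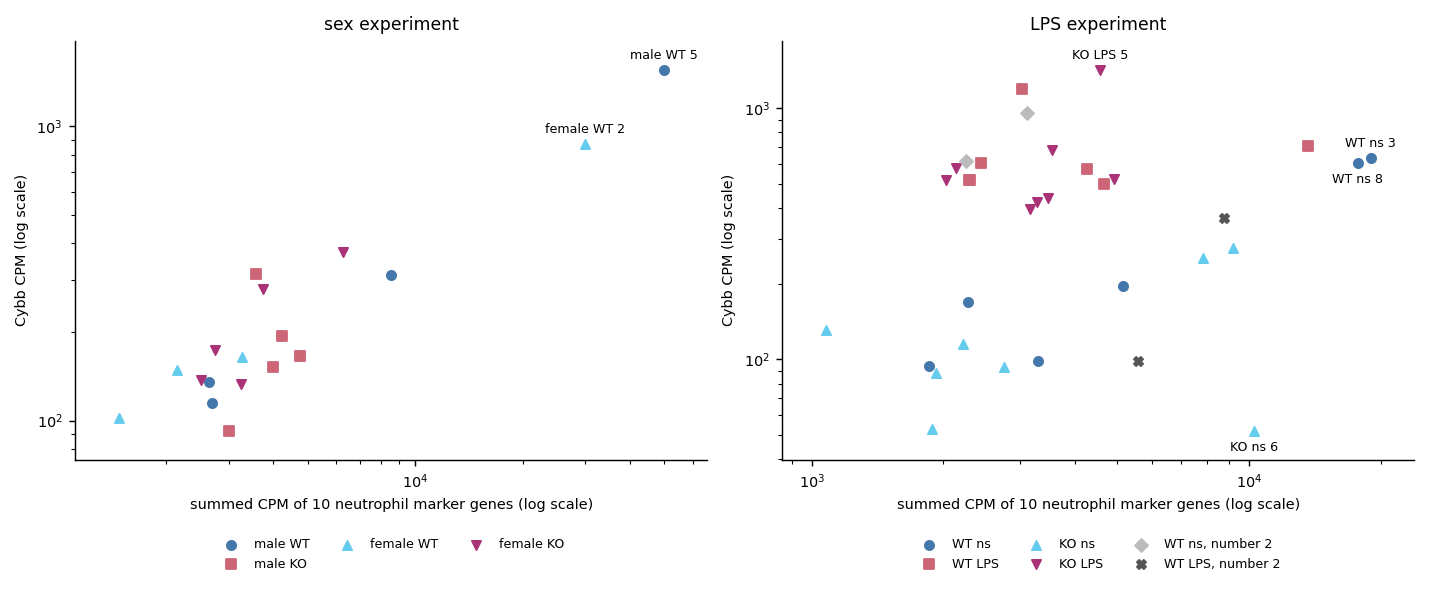
CPM of Cybb against the summed CPM of 10 neutrophil marker genes, both on log axes, with 1 point per library and separate panels for the experiments. Male WT 5, female WT 2, WT ns 3 and WT ns 8 are high on both axes, KO ns 4 and KO ns 1 have the highest Cybb levels of KO ns, KO ns 6 has the highest marker sum and the lowest Cybb level of that group, and the KO LPS libraries have high Cybb at marker sums of 2030 to 4920. The sum of KO ns 6 is mostly S100a8 and S100a9.

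Cyba, the stabilising partner of Cybb, was at 203.6, 254 and 304.4 CPM (lowest, median and highest) in WT ns and at 387.4, 417.1 and 505.4 in WT LPS. The WT groups did not overlap, as for 23.9% of all genes tested. In KO ns the same 3 values were 180.9, 253.4 and 325.4, and in KO LPS 266, 409.6 and 442.8. KO LPS 5, at 266, was the only KO LPS library within the KO ns range. The log2 fold change was 0.75 ± 0.14 in WT (adjusted p 0.0002118, edgeR) and 0.65 ± 0.12 in KO (adjusted p 0.0002057, edgeR). The difference between the genotypes in this response was -0.11 ± 0.19 (95% interval -0.49 to 0.28). The libraries of number 2 had 435.1 and 322.9 CPM under the WT ns label and 251.6 and 259.2 under the WT LPS label. The value of 322.9 lay in neither tested WT range.

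Ncf1, the organiser, nearly doubled in both genotypes. It was at 621.7, 775.4 and 870.5 CPM in WT ns and at 1181, 1504 and 1839 in WT LPS. These groups did not overlap, as for 23.9% of all genes tested. In KO ns the lowest, median and highest values were 509.9, 727.6 and 781.3, and in KO LPS 395.1, 1363 and 1781. KO LPS 5, at 395.1, lay below every KO ns library, and the other 7 KO LPS libraries lay above all of them. The log2 fold change was 0.97 ± 0.22 in WT (adjusted p 0.001554, edgeR), a 1.96-fold rise, and 0.85 ± 0.19 in KO (adjusted p 0.001398, edgeR), a 1.80-fold rise. In the libraries of number 2, those labelled WT ns had 1682 and 909.6 CPM, and those labelled WT LPS had 745.3 and 504.4.

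Ncf4, the lipid-binding subunit, was not called in either genotype. Its lowest, median and highest levels were 93.76, 121.6 and 179.5 CPM in WT ns and 129.8, 151.9 and 171.9 in WT LPS. In KO ns they were 46.98, 95.62 and 127, and in KO LPS 32.94, 131.4 and 167.1. The groups overlapped in both genotypes, with log2 fold changes of 0.19 ± 0.26 in WT (adjusted p 0.6141, edgeR) and 0.48 ± 0.23 in KO (adjusted p 0.1202, edgeR). WT ns 3 and WT ns 8, at 179.5 and 176.2, lay above every WT LPS library, and without both the WT value was 0.45 ± 0.29 (adjusted p 0.2745, edgeR). KO LPS 5 was the lowest library of its group, and without it the KO value was 0.64 with an adjusted p of 0.003884 by edgeR. In the libraries of number 2 the labels overlapped, with 146.8 and 63.53 CPM as WT ns and 123 and 55.96 as WT LPS.

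Rac2, the GTPase of the complex in blood phagocytes, was at 145.8, 209 and 413.4 CPM in WT ns and at 279.8, 303.2 and 366 in WT LPS. WT ns 3 and WT ns 8, at 413.4 and 408.5, lay above every WT LPS library, as they had stood apart for Cybb. In KO ns the lowest, median and highest values were 130.2, 148.1 and 269.9, and in KO LPS 238.7, 300.8 and 339.1. The highest KO ns values were those of KO ns 4 and KO ns 1 (269.9 and 235.5), whose neutrophil marker sums were 9195 and 7860 CPM. KO ns 6, with the highest sum (10240, most of it S100a8 and S100a9), had the lowest Rac2 level (130.2). Rac2 rose in KO by 0.81 ± 0.19 on the log2 scale (adjusted p 0.002018, edgeR). In WT the value was 0.28 ± 0.22 (adjusted p 0.3515, edgeR), and without WT ns 3 and WT ns 8 it was 0.79 ± 0.19 (adjusted p 0.002758, edgeR). That omission takes out the highest WT ns values and was chosen after they were seen, so it is not a test. The part of neutrophil RNA in these values was not tested. In the libraries of number 2 the labels overlapped, with 259.2 and 214.4 CPM as WT ns and 284.9 and 157.9 as WT LPS.

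Hvcn1, the proton channel, ranged from 111.1 to 140.9 CPM in WT ns with a median of 117.8, and from 168.6 to 480 in WT LPS with a median of 239.1. The WT groups did not overlap, which held for 23.9% of all genes tested. In KO ns it was at 95.93, 133.2 and 144.1 and in KO LPS at 113.4, 217.9 and 310.6, where KO LPS 5 was again the lowest and the only library within the ns range. The log2 fold change was 1.15 ± 0.21 in WT (adjusted p 0.0001765, edgeR) and 0.70 ± 0.18 in KO (adjusted p 0.004728, edgeR). Unlike Cybb and Rac2, Hvcn1 was not high in WT ns 3 and WT ns 8, which had 111.1 and 116.2 CPM. The libraries of number 2 had 214.7 and 146.2 CPM under the WT ns label and 112.4 and 128.5 under the WT LPS label.

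Duoxa1 had the largest change of the 7 genes in each genotype. It had 58 to 523 counts in the 6 WT ns libraries (2 to 3.882 CPM) and 0 to 3 counts in the 7 WT LPS libraries, 3 of which had 0. In KO ns there were 73 to 256 counts (2.627 to 19.18 CPM) and in KO LPS 0 to 4, with 1 library at 0. Neither genotype had any overlap between ns and LPS, as for 23.9% of all genes tested in WT and 7.63% in KO. Summed over libraries, WT LPS held 9 counts, or 0.0552 CPM (95% exact Poisson interval 0.0252 to 0.105), against 3.08 (2.88 to 3.29) in WT ns. KO LPS held 13 counts, or 0.0588 CPM (0.0313 to 0.101), against 4.37 (4.1 to 4.66) in KO ns. These intervals cover counting error only. Duoxa1 fell by 5.76 on the log2 scale in WT (SE 0.60, adjusted p 4.982e-08, edgeR) and by 6.33 in KO (SE 0.51, adjusted p 4.89e-10, edgeR).

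The libraries of number 2 held 1 and 3 counts of Duoxa1 where the label reads ns, and 78 and 95 where it reads LPS. Duoxa1 thus went against the treatment label in the same 4 libraries as Saa3, and with all libraries as labelled it was not called in WT (adjusted p 0.4962, edgeR). Its partner Duox1 was hardly counted, with group means of at most 0.0379 CPM in the LPS experiment. Marker levels of several cell types, microglia among them, were also lower with LPS. The medians of all 10 microglial markers were lower with LPS in each genotype. So were those of all 6 T and NK cell markers and all 4 oligodendrocyte markers. The summed level of 6 B cell markers was 419 to 496.2 CPM in WT ns and 84.17 to 169.5 in WT LPS, and 347.7 to 530.8 in KO ns and 123.5 to 222.6 in KO LPS. Most of this sum was Ighm, with a median of 432 in WT ns and 65.75 in WT LPS; the medians of 5 of the 6 were lower in each genotype, and that of Cd79b was higher (18.14 and 21.96 in WT). That of 5 dendritic cell markers was 21.52 to 43.24 and 6.989 to 14.63 in WT, and 20.19 to 57.77 and 6.071 to 12.97 in KO. Cd209a was the largest part of it at ns, with medians of 18.48 and 0.17 in WT; in KO the medians of Xcr1 and Zbtb46 were higher with LPS and those of the other 3 lower. For 6 markers of border-associated macrophages it was 246.9 to 692.2 and 87.12 to 336.3 in WT, and 186.2 to 573.2 and 89.73 to 294.3 in KO. For 4 endothelial markers it was 48.61 to 59.48 and 14.85 to 36.66 in WT, and 61.97 to 94.99 and 23.33 to 60.87 in KO, although the median of Cldn5 was higher with LPS. Their part in the fall of Duoxa1 was not tested.

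**Figure D3:**
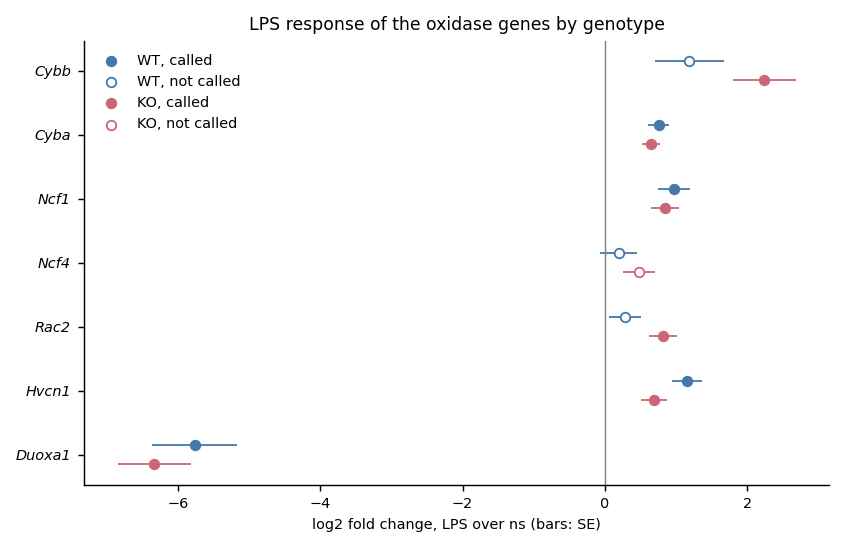
Log2 fold change of each gene, LPS over ns, by genotype, with bars of 1 SE; filled points have an adjusted p under 0.05 and open points do not. Duoxa1 lies at -5.76 (WT) and -6.33 (KO), while the other 6 genes lie between 0.19 and 2.24 in both genotypes.

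Neither genotype comparison of the LPS experiment called any of the 7 genes. At ns 0 of 7 were called by edgeR, where 0.0919% of all genes were, and 3 (Cybb, Rac2 and Ncf4) had an unadjusted p under 0.05, as 9.37% of all genes did. The KO-over-WT log2 fold change at ns was -1.18 ± 0.45 for Cybb (adjusted p 0.4536, edgeR), -0.61 ± 0.21 for Rac2 (adjusted p 0.4356, edgeR) and -0.57 ± 0.24 for Ncf4 (adjusted p 0.4912, edgeR). Without WT ns 3 and WT ns 8 these values were -0.06, -0.10 and -0.32. Both libraries had the highest WT ns levels of these genes and were picked after the values were seen, so smaller differences follow from the omission. For Cyba, Ncf1 and Hvcn1 the differences at ns were -0.02 (95% interval -0.29 to 0.26), -0.17 (-0.60 to 0.26) and 0.11 (-0.30 to 0.51). Duoxa1 gave 0.66 ± 0.41 (adjusted p 0.582, edgeR), and its mean in KO ns of 5.42 ± 5.60 CPM rested on KO ns 6 at 19.18, the next library being at 4.459.

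At LPS 0 of 7 were called by edgeR, where 0.0674% of all genes were, and 0 had an unadjusted p under 0.05, against 6.39% of all genes. The differences ran from -0.35 ± 0.20 for Hvcn1 (95% interval -0.75 to 0.06) to 0.09 ± 0.72 for Duoxa1 (-1.41 to 1.59). For Cybb the difference at LPS was -0.13, with a 95% interval of -1.06 to 0.81. The genotype-by-LPS interaction gave 0 calls among the 7 and among all 16322 genes (edgeR), with 816 genes (5%) and 0 of the 7 at an unadjusted p under 0.05. It was 1.05 ± 0.64 for Cybb (adjusted p 0.7403, edgeR), 0.53 ± 0.29 for Rac2 (adjusted p 0.7403) and -0.45 ± 0.28 for Hvcn1 (adjusted p 0.7403). The calls of Cybb and Rac2 in KO alone are therefore not shown to be a difference between the genotypes. Without WT ns 3 and WT ns 8, an omission chosen after the values were seen, the interaction was -0.08 for Cybb and 0.02 for Rac2.

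Per kilobase of exon, a rough scale for comparing genes, Cyba and Ncf1 were the most abundant members in WT ns, at 245.9 ± 37.01 and 209.0 ± 26.18 CPM per kilobase (SD, n = 6). Rac2 (83.04 ± 39.13), Ncf4 (66.55 ± 17.49), Cybb (51.49 ± 43.21) and Hvcn1 (33.97 ± 3.18) followed. Cyba and Ncf1, and neighbours among these other 4, differed by less than the larger SD of the pair. Duoxa1 was far below, at 0.753 ± 0.156. In WT LPS Cyba (413.0 ± 43.45) and Ncf1 (409.8 ± 69.81) still led, and Cybb (117.5 ± 44.63) had the third mean, ahead of Rac2 (101.2 ± 11.34), Ncf4 (76.0 ± 8.26) and Hvcn1 (75.88 ± 31.89). Of these last 4, Rac2 and Ncf4 were the only neighbours to differ by more than the larger SD. In KO the level of Cybb per kilobase was 22.88 ± 14.91 at ns and 107.1 ± 57.88 at LPS (n = 8 each). Cybb was thus the lowest of the 6 subunit and channel genes by its mean in KO ns and the third in KO LPS. That place rested on KO LPS 5: without it the mean of Cybb was 87.38 against 98.57 for Rac2, and by medians of all 8 libraries Cybb (89.82) also lay below Rac2 (96.95). The exon lengths come from the GENCODE vM21 annotation, with all annotated exons of a gene joined, and not from the counting itself. The order of the genes depends on them.

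In the sex experiment 0 of the 7 genes were called in any of 5 comparisons (edgeR), and 0 had an unadjusted p under 0.05. Between KO and WT, 0.432% of the 31709 genes tested were called over the mean of the sexes, 0.00946% in males and 0.164% in females. Between female and male WT 0.0725% were called, and for the sex-by-genotype interaction 0% were, with 879 genes at an unadjusted p under 0.05. Unadjusted p-values under 0.05 were found for 9.02% (mean of the sexes), 6.85% (males), 5.22% (females), 7.5% (female against male WT) and 2.77% (interaction) of all genes. The level of Cybb varied 13.6-fold among male WT and 8.56-fold among female WT animals, against 3.43-fold and 2.81-fold among KO animals. Cybb in the 4 male WT animals was at 114.5, 135.4, 313.4 and 1559 CPM, and in the 5 male KO animals at 92.17, 151.7, 166.2, 193.5 and 315.7. In the 4 female WT animals it was at 101.9, 149, 164.3 and 871.9, and in the 5 female KO animals at 133.5, 137.9, 174.3, 281.2 and 374.5. The animals at 1559 and 871.9 were male WT 5 and female WT 2, and the groups overlapped in both sexes.

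Male WT 5 and female WT 2 were also the highest animals of their groups for Rac2, at 570 and 406.9 CPM against 93.6 to 192.8 in the other 16 animals. For Ncf4 they were at 223.4 and 171.1, against 66.83 to 94.15. For Ncf1 they were at 937.8 and 721.7, against 399.9 to 543.7, and for Cyba at 250.1 and 205.5, against 125.2 to 180.5. Hvcn1 and Duoxa1 did not follow: Hvcn1 was at 256.4 and 219.1 in these animals and at 215.5 to 270.7 in the others, and Duoxa1 was at 1.613 and 1.995 against 1.866 to 3.102. The summed level of the 10 neutrophil markers was 49750 and 29980 CPM in male WT 5 and female WT 2, and 1472 to 8547 in the others. Ly6g alone was at 126.9 and 75.04, against group medians of 5.234 to 14.52. Their monocyte marker sums were 3913 and 2165, and their microglial sums, 22570 and 23110, were the lowest of all animals. The part of these markers in the oxidase levels was not tested.

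**Figure D4:**
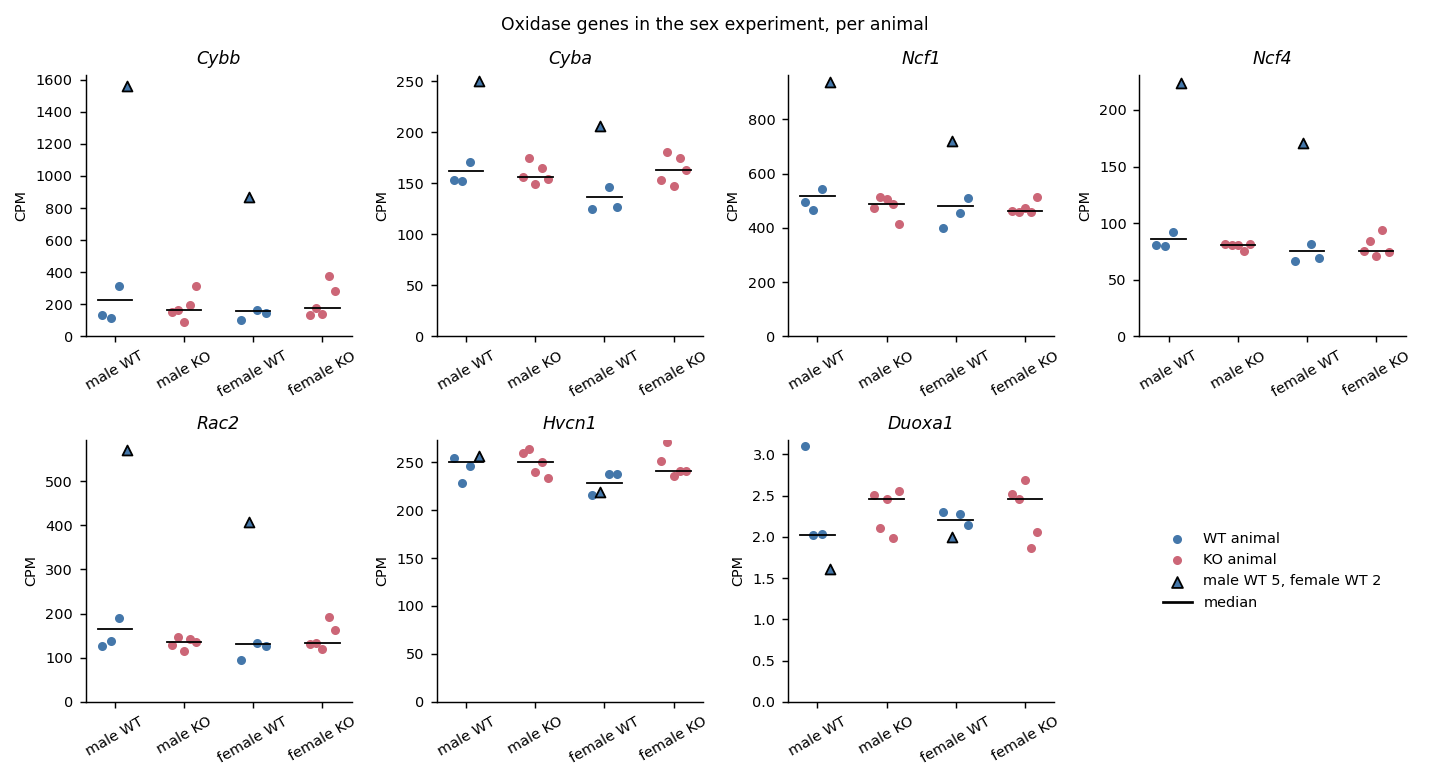
CPM of each gene in every animal of the sex experiment, on linear axes from 0, with lines at the group medians and triangles for male WT 5 and female WT 2. The triangles lie above all other animals for Cybb, Cyba, Ncf1, Ncf4 and Rac2 but not for Hvcn1 or Duoxa1.

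The KO-over-WT log2 fold change of Cybb was -1.53 ± 0.79 in males (adjusted p 0.7237, edgeR), -0.55 ± 0.79 in females (adjusted p 1, edgeR) and -1.04 ± 0.56 over both. Without male WT 5 and female WT 2, picked after the values were seen, these values were -0.03, 0.67 and 0.32, and none was called. Rac2 gave -0.94 ± 0.46 in males (adjusted p 0.7195, edgeR) and -0.36 ± 0.46 in females, and -0.19 and 0.32 without those animals. Hvcn1 had highest-to-lowest ratios within a group of 1.10 to 1.15, the lowest of the 7 genes in both WT groups, though Ncf4 in male KO (1.08) and Ncf1 in female KO (1.12) had lower ones. It gave differences of 0.02 ± 0.07 in males and 0.12 ± 0.07 in females. In this table, though, introns lie inside the counted spans, and Hvcn1 overlaps Tctn1 on the other strand by 2803 bases. Tctn1 held counts equal to 70.55% of those of Hvcn1, at group means of 160.2 to 176.5 CPM, against 14.37 to 25.77 in the LPS table. The strand setting of the counting is not given in the sources used here, so reads of these genes cannot be told apart. Ncf1 and Duoxa1 also overlap other genes there, whose counts were 12.16% and 12.94% of theirs. Sex-by-genotype interactions ran from 0.00 ± 0.26 for Duoxa1 to 0.98 ± 1.12 for Cybb (95% interval -1.43 to 3.39).

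Lists of other genes of the pathway were chosen by function, with earlier results of these data known. In the sex experiment and in the genotype and interaction comparisons of the LPS experiment, 0 genes of these lists were called (edgeR). The shares of all genes called with LPS, against which the counts of these lists stand, were 14.8% higher and 15.9% lower in WT and 13.3% and 15.5% in KO. Of 8 other NADPH oxidase genes 1 was abundant enough to test with LPS, Noxo1, an organiser of another oxidase, which fell by 1.83 in WT and 1.47 in KO on the log2 scale. Of 24 tested genes for assembly and activation, 1 rose (P4hb) and 3 fell (Prkca, Tiam1, Pak1) in WT, and 4 rose (P4hb, Pik3r5, Prdx6, Prkcb) and 3 fell (Prkca, Tiam1, Pik3cg) in KO. P4hb, a disulfide isomerase, rose by 1.23 ± 0.12 in WT and 1.28 ± 0.10 in KO. Prkca, a protein kinase C, and Tiam1, an exchange factor for Rac proteins, fell in both, Prkca by 2.41 and 1.87 and Tiam1 by 1.91 and 1.45. The median of this list was -0.18 in WT and -0.07 in KO. In all 4 of 24 were called in WT and 7 of 24 in KO, against 30.7% and 28.8% of all genes, so that these counts lie below or near the background.

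Of 11 tested genes for removal of superoxide and peroxide, 4 rose (Sod2, Prdx1, Prdx5, Txnrd1) and 1 fell (Cat) in WT, and 3 rose (Sod2, Txnrd1, Prdx5) and 2 fell (Gpx4, Cat) in KO. Sod2, the mitochondrial superoxide dismutase, rose by 3.58 ± 0.34 in WT (adjusted p 1.355e-08, edgeR) and by 2.31 ± 0.28 in KO (adjusted p 4.655e-07, edgeR). Prdx5, a peroxiredoxin, and Txnrd1, a thioredoxin reductase, rose in both, and Cat, which encodes catalase, fell by 0.73 in WT and 0.59 in KO. The median of this list was 0.97 in WT and 0.25 in KO. Of 9 transcription factors of myeloid and interferon responses, 1 rose and 2 fell in WT, and 2 rose and 1 fell in KO. Cebpb rose by 1.89 in WT and 1.65 in KO, and Cebpa fell by 1.31 and 1.18. Cebpe fell in WT by 2.51 and was not called in KO (-0.56), and Irf1 rose in KO by 0.67 and was not called in WT (0.44); the interaction called neither (adjusted p 0.7403 and 0.8296, edgeR). Spi1, which encodes PU.1, was not called, with 0.14 ± 0.30 in WT (adjusted p 0.7568, edgeR) and 0.24 ± 0.26 in KO (adjusted p 0.5484, edgeR).

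Over the 28 samples of the LPS fit, the genes whose centred log2 CPM lay nearest to that of Cybb were Mlkl, Gm43197 and Fanci. Their root-mean-square differences were 0.45, 0.51 and 0.52, against 1.32 for the profile of Cybb itself around its mean. For Duoxa1 the nearest were Upk1b (0.63), Gm3164 (0.82) and Tnfrsf17 (0.84), against 2.59 for its own profile. The samples share their treatment, library set and cell makeup, so this is a description of likeness only.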

How the data were processed

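Gene expression was measured by RNA sequencing of polyadenylated RNA. The authors deposited raw counts per gene, 1 table for each experiment, as whole numbers without normalization. The submitters' processing notes name FastQC, STAR 2.6.1, featureCounts, Subread, DESeq2 and GRCm39, with no role or order. Per the file headers, the length of each gene in the sex table is its whole span, so introns and overlapping genes lie inside it. No strand setting is given in the sources used here. The labels list 57 libraries. Of these, 18 columns of the sex experiment and 33 of the LPS experiment were used, 6 repeat libraries were not analysed here, and 0 columns lacked a sample.

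Groups came from the labels. Each table was fitted by itself in R 4.3.3 with edgeR 4.0.16 (limma 3.58.1): filterByExpr, TMM scaling, the quasi-likelihood F test with robust dispersions, and Benjamini-Hochberg adjustment over all genes tested (31709 and 16322 genes). One mean was fitted per group, with the library set as a covariate in the LPS experiment. The 2 sets come from the library names. The 4 WT libraries of number 2 were left out there and WT LPS 8 and 9 were summed (chi-square per degree of freedom 1.86, next pair 8.32), which left 28 samples. The biological coefficient of variation was 35.3% and 40.2%. Alternatives were DESeq2 1.42.0, RLE in place of TMM, dropping the filter or asking for a mean of 5 CPM, also asking for a log2 fold change of 1, fitting the compared groups by themselves, leaving out the set term, each set alone, number 2 left out everywhere, all libraries as labelled, WT LPS 8 and 9 apart, a replicate block, and each sample left out. The tests were checked before use on simulated counts. Those had a smaller variation than these data, equal for every gene, with no set effect and no libraries that stand apart. The check therefore does not show how the tests perform on data like these. Genes named are the 7 members, P2ry12 and Saa3, called genes of the lists (at most 4 a comparison) and the 3 genes nearest to Cybb and to Duoxa1 by profile; Duox1, Spi1, Tctn1, list genes beyond 4 and single markers were named after their values were seen. Some genes of the lists are not reported here and not counted. The members, lists and alternatives were chosen with earlier results of these data known.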

Additional observations from a re-analysis of the deposited data

Results flagged for a closer look

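Within groups of 4 to 10 samples, 56 sets of values were checked for a highest or lowest sample far from the rest by Dixon's criterion, and 13 met it. Chance alone marks about 1 in 20 such groups, and values of the same library are not independent.

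Male WT 5 stood far above the other male WT animals for Cybb (1559 CPM, next 313.4), Ncf1 (937.8, next 543.7), Ncf4 (223.4, next 91.86) and Rac2 (570, next 189.2). Female WT 2 stood far above the other female WT animals for Cybb (871.9, next 164.3), Ncf4 (171.1, next 81.69) and Rac2 (406.9, next 133.9). In male KO animals Ncf4 was lowest in male KO 4 (75.59, next 80.48), a small step in a group of narrow spread.

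In the LPS experiment KO LPS 5 was highest for Cybb (1422, next 678.4) and lowest for Cyba (266, next 380.6). Cybb was highest in WT LPS 2 (1189, next 708.8). KO ns 6 was highest for Duoxa1 (19.18, next 4.459), with 256 counts, and KO ns 5 was lowest for Hvcn1 (95.93, next 123.3).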

How the results depend on the processing

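With each sample left out in turn, the number of the 7 genes called was 4 to 5 for LPS in WT, 6 to 7 for LPS in KO and 0 to 0 in each of the other comparisons. In the main fit 30.7% of all genes were called for LPS in WT and 28.8% in KO. LPS in WT gave 0 calls with all libraries as labelled, 1 in library set 2 alone and 2 with a log2 fold change of at least 1, and LPS in KO gave 2 in set 2 alone and 2 with that fold change. Of all 16322 genes, 3072 in WT and 2447 in KO were called with that fold change. No call changed direction. Cybb in WT was called in 7 of 42 other settings: with DESeq2 (1.22, adjusted p 0.03833), with the replicate block (1.53, adjusted p 0.04246), without WT ns 3, without WT ns 8, without both, without KO LPS 5 (1.22, adjusted p 0.0373) and without KO LPS 5 and KO ns 6 (1.16, adjusted p 0.0383), over a range of 0.43 to 2.30 and adjusted p-values of 0.001089 to 0.6001. In KO it was lost in set 1 alone (1.49, adjusted p 0.1114), and Rac2 in set 1 (0.64, adjusted p 0.07903) and set 2 (1.07, adjusted p 0.06966). Cyba, Ncf1 and Hvcn1 lost their calls in set 2 alone in both genotypes and, in WT, with all libraries as labelled. Ncf4 in KO was called without number 2 in every group (0.54, adjusted p 0.02381) and without KO LPS 5 and KO ns 6 (0.55, adjusted p 0.01511). The sets have equal numbers of samples in each group. WT LPS 7, KO ns 6 and KO LPS 5, all of set 2, had the lowest TMM factors of their tested groups (0.6785, 0.7419 and 0.9161). Their Tctn1 levels (5.949, 5.245 and 2.377 CPM) were also the lowest, against group medians of 25.84, 23.32 and 26.46. WT LPS 7 was the highest WT LPS library for Hvcn1 (480) and Saa3 (9671). The cause of the difference between the sets was not tested. Leaving out male WT 5 with female WT 2, WT ns 3 with WT ns 8, or KO LPS 5 with KO ns 6 was chosen after seeing the data.

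Same-numbered samples did not deviate together in every pair (mean r 0.00711 over 24 pairs of the sex experiment, 7 over 0.1, and 0.196 over 35 pairs of the LPS experiment, 19 over 0.1). Pairs of different numbers had a mean r of -0.00093 (97 pairs) and 0.012 (257 pairs, 116 over 0.1). In the LPS experiment same-numbered samples were thus more alike on average. The main fit does not take the numbers as pairing and may leave out a shared part, so the block is given as an alternative. With the replicate block 5 genes were called for LPS in WT, Cybb being added, 6 for LPS in KO and 0 elsewhere. Of all 18779 genes tested with the block, 31.1% were called for LPS in WT and 30.9% in KO. Only the compared groups could not be fitted alone for the mean of the sexes and the interactions, which use all 4 groups. At 0 to 4 counts per LPS library, depth limits how small a level of Duoxa1 can be told from 0.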
